A study of Homo sapiens with 21 samples.

Results

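The mitosis and G2/M genes are 56 protein-coding genes whose products drive cells from G2 through mitosis to cytokinesis. They were taken by symbol from the 42339 genes of the raw count table, each matched through its Ensembl identifier, and all 56 were found. The counts came from BT-549 cells, an established mesenchymal-like triple-negative breast cancer (TNBC) line, in 21 libraries that fell into 7 groups of 3. The 2D cells and the 3D cells (mammospheres at serial passage 6) are labelled as controls and carried no shRNA, and a further group of passage 6 mammospheres received 0.75 μmol/L GO-203, a peptide inhibitor of the MUC1-C subunit. The 3D control libraries serve as the vehicle arm of the GO-203 comparison, and the labels do not name what vehicle they received. Mammospheres of the tet-MUC1shRNA line at passage 6 and of the tet-MYCshRNA line at passage 8 were given vehicle (0.1% DMSO) or 500 ng/ml doxycycline (DOX), which switches the shRNA on. All 7 groups share the parental BT-549 line, which is labelled as wild type. The 2D cells grew in serum-containing medium and the 3D cells in a mammosphere medium on low-attachment plates, so growth format and medium cannot be told apart. Line, shRNA and passage number differ together between the tet lines, and no DOX-treated line without an shRNA was analysed. The labels number the libraries of a group but do not say how far the cultures were separate, so p-values measure the spread between these libraries.

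Entry into mitosis is driven by CDK1 bound to cyclins A and B, which CDC25 phosphatases activate and Polo and Aurora kinases reinforce. The spindle checkpoint then holds the anaphase-promoting complex (APC/C) in check until kinetochores are attached to microtubules, and the chromosomal passenger complex, motor proteins and centralspindlin complete segregation and cytokinesis. Transcripts of these genes peak in G2 and mitosis, when the DREAM repressor is replaced by MYBL2 and FOXM1 at promoters that often hold a cell cycle homology region (CHR) and CCAAT boxes bound by NF-Y. In bulk RNA, fewer cells in G2 and mitosis and less of a transcript per cell cannot be told apart.

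Promoter sequence was available for 47 of the 56 genes, as 60 windows of 250 bases before to 50 bases after an annotated start (RefSeq, GRCh38.p14). CDCA2, BIRC5, RACGAP1, TTK, TPX2, AURKA, UBE2C, FOXM1 and BUB3 were not matched. The CHR was searched as TTTGAA or TTCGAA and the NF-Y box as CCAAT, both on either strand. TTCGAA reads the same on both strands, and none of the motifs searched contains another. A CHR was found in 40 of 60 windows (66.7%) against 16.4% of all 35116 windows in the table, and a CCAAT box in 42 (70.0%) against 34.6%. Both stood together in 51.7% of the windows of these genes and in 6.38% of all windows. An E2F-type match, TTTNNCGC, was present in 13.3% against 6.89%, and the E-box CACGTG, to which MYC binds, in 11.7% against 7.26%. With the 250 bases before the start alone, the CHR share was 45.0% against 14.3%. The following stretches run from 130 to 21 bases before the start, with CHR and CCAAT matches in capitals. They are shown because CCNB2, PLK1 and CDC20 fell on MYC silencing while CDC25B, which has 4 annotated starts, rose, and the start of CDC25B printed here carries both elements as well.
CCNB2, chr15:59105016-59105125, + strand: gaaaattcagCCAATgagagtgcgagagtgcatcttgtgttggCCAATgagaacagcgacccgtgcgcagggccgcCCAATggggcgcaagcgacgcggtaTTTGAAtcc
PLK1, chr16:23678759-23678868, + strand: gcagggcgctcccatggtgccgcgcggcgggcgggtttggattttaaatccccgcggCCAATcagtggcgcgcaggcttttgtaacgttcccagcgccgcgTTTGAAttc
CDC20, chr1:43358851-43358960, + strand: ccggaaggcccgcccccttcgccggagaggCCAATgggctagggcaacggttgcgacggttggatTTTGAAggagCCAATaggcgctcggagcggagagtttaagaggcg
CDC25B, chr20:3796180-3796289, + strand: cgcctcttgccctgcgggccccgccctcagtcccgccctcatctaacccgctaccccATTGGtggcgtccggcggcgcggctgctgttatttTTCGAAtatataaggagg

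In both CCNB2 and PLK1 the CHR begins 29 bases before the start, and in CDC25B it begins 38 bases before it. Of the other 3 starts of CDC25B, none held a CHR, which says only that these letters are not in those windows. Matches clustered by position. In the bin from 25 bases before the start to the start, 18.3% of the windows of these genes had a CHR against 1.21% of all windows, and from 75 to 50 bases before the start 36.7% had a CCAAT box against 7.84%.

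**Figure D1:**
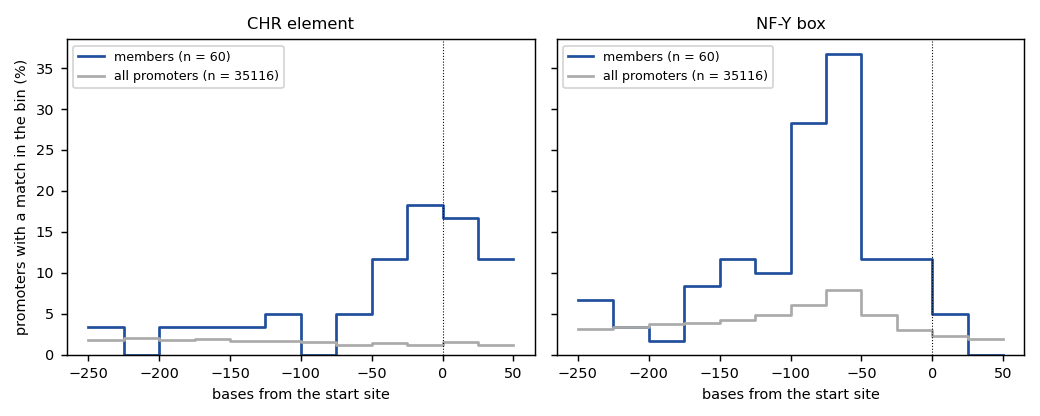
Share of promoter windows (percent, vertical axis) with a CHR element (left) or an NF-Y box (right) in bins of 25 bases, against the distance from the annotated start in bases (horizontal axis), for the 60 windows of the mitosis and G2/M genes (blue) and all 35116 windows (grey). The blue line peaks at 18.3% for the CHR element just before the start and at 36.7% for the NF-Y box from 75 to 50 bases before it, where the grey lines are at 1.21% and 7.84%.

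Library totals ran from 38026597 to 99751717 counts, and the 56 genes took 0.619% to 1.34% of a library. Levels are given as CPM, counts per library size after adjustment by edgeR's TMM scaling factors over all 21 libraries, and scaling by library size alone leaves those factors out. VIM, a mesenchymal marker, was at 1066.5 CPM or more in all 21 libraries, whereas ESR1 and EPCAM did not exceed 1.49 and 0.122 CPM. They are examples from lists of 5 markers chosen as present and 4 as low or absent, and other markers moved. In 3D against 2D cells the 5 had log2 fold changes from -3.11 to 3.89 (3 higher, 2 lower). The 1 tested of the 4 was at -9.27. With MUC1 silenced, the 5 ran from -1.41 to 2.67 (2 higher, 2 lower). Of the 4, 2 were tested there and 1 rose, by 3.26. Under GO-203 none of the 5 was called higher or lower. MUC1 was at 101, 82.4 and 85.3 CPM in vehicle-treated and at 20.2, 21.6 and 23.1 CPM in DOX-treated tet-MUC1shRNA mammospheres (log2 fold change -2.06, SE 0.07). MYC was at 446, 425 and 382 CPM in vehicle-treated and at 239, 282 and 304 CPM in DOX-treated tet-MYCshRNA mammospheres (log2 fold change -0.62, SE 0.08). The groups did not overlap for either targeted gene. MYC itself was higher by 0.25 on the log2 scale (SE 0.04) on MUC1 silencing, and MUC1 was higher by 1.25 (SE 0.11) on MYC silencing. All 56 genes passed the filter on low counts in every comparison.

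As a group, the mitosis and G2/M genes were most abundant in 2D cells and in vehicle-treated tet-MYCshRNA mammospheres. Their mean log2 CPM was 7.02 ± 0.016 (SD, n = 3) in 2D cells, 6.47 ± 0.010 in 3D cells and 6.19 ± 0.054 in GO-203-treated 3D cells. In the tet-MUC1shRNA line it was 6.12 ± 0.021 with vehicle and 6.04 ± 0.062 with DOX, an order that turned by library size alone, to 6.05 ± 0.031 and 6.13 ± 0.0030. In the tet-MYCshRNA line it was 6.84 ± 0.046 with vehicle and 5.97 ± 0.042 with DOX. The libraries of these last 2 groups were thus far apart, from 6.79 to 6.88 and from 5.93 to 6.01. The DOX-treated libraries of both tet lines overlapped (5.97 to 6.08 for tet-MUC1shRNA), whereas their vehicle-treated libraries did not (6.10 to 6.14 for tet-MUC1shRNA). GO-203-treated 3D cells (6.13 to 6.24) overlapped with vehicle-treated tet-MUC1shRNA mammospheres. By library size alone neither overlap remained, with 6.12 to 6.13 against 5.89 to 5.99 for the DOX-treated libraries of the tet lines and 6.17 to 6.22 against 6.02 to 6.08 for the other pair. By CPM with TMM factors, 33 of the 56 genes were highest in 2D cells and 16 in vehicle-treated tet-MYCshRNA mammospheres. In DOX-treated tet-MYCshRNA mammospheres 27 were lowest. The shares of all genes in these positions were not counted. The ratio of the highest to the lowest group mean had a median of 2.53 and ran from 1.62 for CKS2, a CDK-binding subunit, to 5.63 for CENPF, an outer kinetochore protein. Compared per kilobase of exon in 2D cells, CCNB1 (cyclin B1) was the most abundant at 272 CPM per kb, followed by TPX2, a spindle assembly factor, at 234 and CKS2 at 201.

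**Figure D2:**
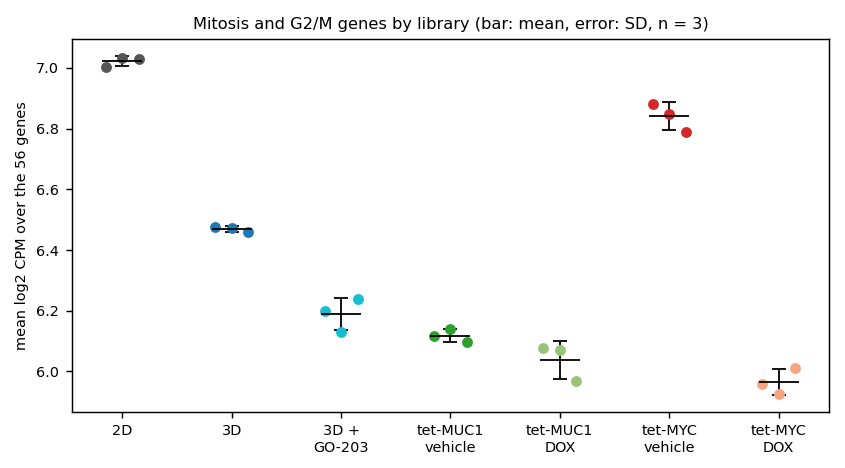
Mean log2 CPM over the 56 mitosis and G2/M genes (vertical axis) in each of the 21 libraries (points), with the mean and SD of each group of 3 (bars), for the 7 groups (horizontal axis). The 2D libraries (7.0 to 7.03) and vehicle-treated tet-MYCshRNA libraries (6.79 to 6.88) stand above all others, and DOX-treated tet-MYCshRNA libraries (5.93 to 6.01) are among the lowest.

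In 3D vs. 2D cells, most mitosis and G2/M genes were downregulated: 47 of 56 fell, none rose and 9 did not pass at an adjusted p below 0.1. Over all 19190 genes tested, 31.7% were lower and 32.0% higher. The median log2 fold change was -0.49 over the 56 genes and -0.01 over all genes tested. At an unadjusted p below 0.05 in edgeR, the count of higher genes was also 0, and DESeq2 called 0 at its adjusted p. The highest values were 0.56 (SE 0.55) for NUSAP1, which had at most 0.462 CPM, 0.11 (SE 0.07) for CDCA5 (sororin, which protects cohesin) and 0.09 (SE 0.06) for CKS2. NUSAP1 was at 0.268, 0.178 and 0.159 CPM in 2D and at 0.284, 0.462 and 0.121 CPM in 3D cells. CDCA5 was at 41.3, 46.2 and 43.0 CPM against 47.9, 43.6 and 44 CPM, and CKS2 at 112, 124 and 135 CPM against 126, 132 and 123 CPM. These groups overlapped for all 3 genes. Without replicate 2 of the 2D cells CDCA5 passed as higher, and without replicate 3 CKS2 did. Other mammosphere groups lay at other levels. Mean log2 CPM over the 56 genes was 7.02 in 2D and 6.47 in 3D cells. It was 6.12 in vehicle-treated tet-MUC1shRNA but 6.84 in vehicle-treated tet-MYCshRNA mammospheres, where 16 genes had their highest group level. The distance from 2D cells thus depended on the mammosphere group, and the tet-MYCshRNA group was not tested against 2D cells.

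The steepest falls were in large proteins of the spindle and kinetochore. ASPM, which focuses spindle poles, was counted at 917, 858 and 907 CPM in 2D cells and at 354, 362 and 337 CPM in 3D cells. CENPE, a kinetochore motor, was at 276, 270 and 293 CPM in 2D and at 109, 114 and 109 CPM in 3D cells. CENPF was at 568, 568 and 615 CPM in 2D and at 250, 274 and 230 CPM in 3D cells. In each case the 3D libraries stayed far below every 2D library. The log2 fold changes were -1.29 (SE 0.05, edgeR adjusted p = 4.2e-12) for ASPM, -1.28 (SE 0.06, adjusted p = 7.4e-12) for CENPE and -1.16 (SE 0.06, adjusted p = 1.6e-10) for CENPF. All 9 centromere and kinetochore genes fell, with a median of -0.62.

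Among the 11 genes of mitotic entry, 9 fell. GTSE1, a microtubule-binding protein of G2, fell by 0.96 on the log2 scale, CCNA2 (cyclin A2) by 0.87 and CCNB2 (cyclin B2) by 0.76. CDK1, the kinase that they activate, was at 163, 160 and 172 CPM in 2D and at 114, 114 and 115 CPM in 3D cells, and its log2 fold change was -0.48 (SE 0.05, edgeR adjusted p = 1.2e-06). CCNB1 was at 641, 697 and 647 CPM against 430, 424 and 460 CPM. The CDK1 and CCNB1 libraries of the 2 groups did not overlap. CDC25B, the phosphatase that starts CDK1 activation, had a log2 fold change of -0.07 (SE 0.07) and overlapping groups. PLK1, the Polo kinase, fell by 0.22 (SE 0.07) but did not pass without replicate 2 of the 2D cells (adjusted p = 0.10 from edgeR).

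In the spindle checkpoint, 4 of 5 genes fell, with TTK (the MPS1 kinase) falling by 0.82 and MAD2L1 (MAD2) by 0.58, while BUB3 had a log2 fold change of -0.08 (SE 0.05). BUB3 passed as lower by library size alone (-0.14). When the 2D cells were compared instead with the vehicle group of the tet-MUC1shRNA line, MAD2L1 was at 0.0040 and did not pass, BUB3 turned to higher at 0.28 and AURKB passed as higher at 0.39, while the median over the 56 genes moved to -0.92. Of the chromosomal passenger complex, BIRC5 (survivin) fell by 0.59 and CDCA8 (borealin) by 0.54. The kinase and scaffold of the same complex did not pass with TMM factors. AURKB was at 53.2, 62.0 and 54.6 CPM in 2D and at 58.4, 56.5 and 53.7 CPM in 3D cells, and INCENP had a log2 fold change of -0.08 (SE 0.07) and passed as lower by library size alone (-0.14). UBE2C, the ubiquitin-conjugating enzyme of the APC/C, was likewise at -0.03 (SE 0.06), while its activator CDC20 fell by 0.19 and securin (PTTG1) by 0.34. Proliferation marker MKI67, a coat protein of mitotic chromosomes, was at 829, 786 and 768 CPM in 2D and at 518, 583 and 470 CPM in 3D cells. It fell by 0.55 and TOP2A, which untangles sister DNA, by 0.63. Of the transcription factors, FOXM1 fell by 0.51 and MYBL2 by 0.24.

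**Figure D3:**
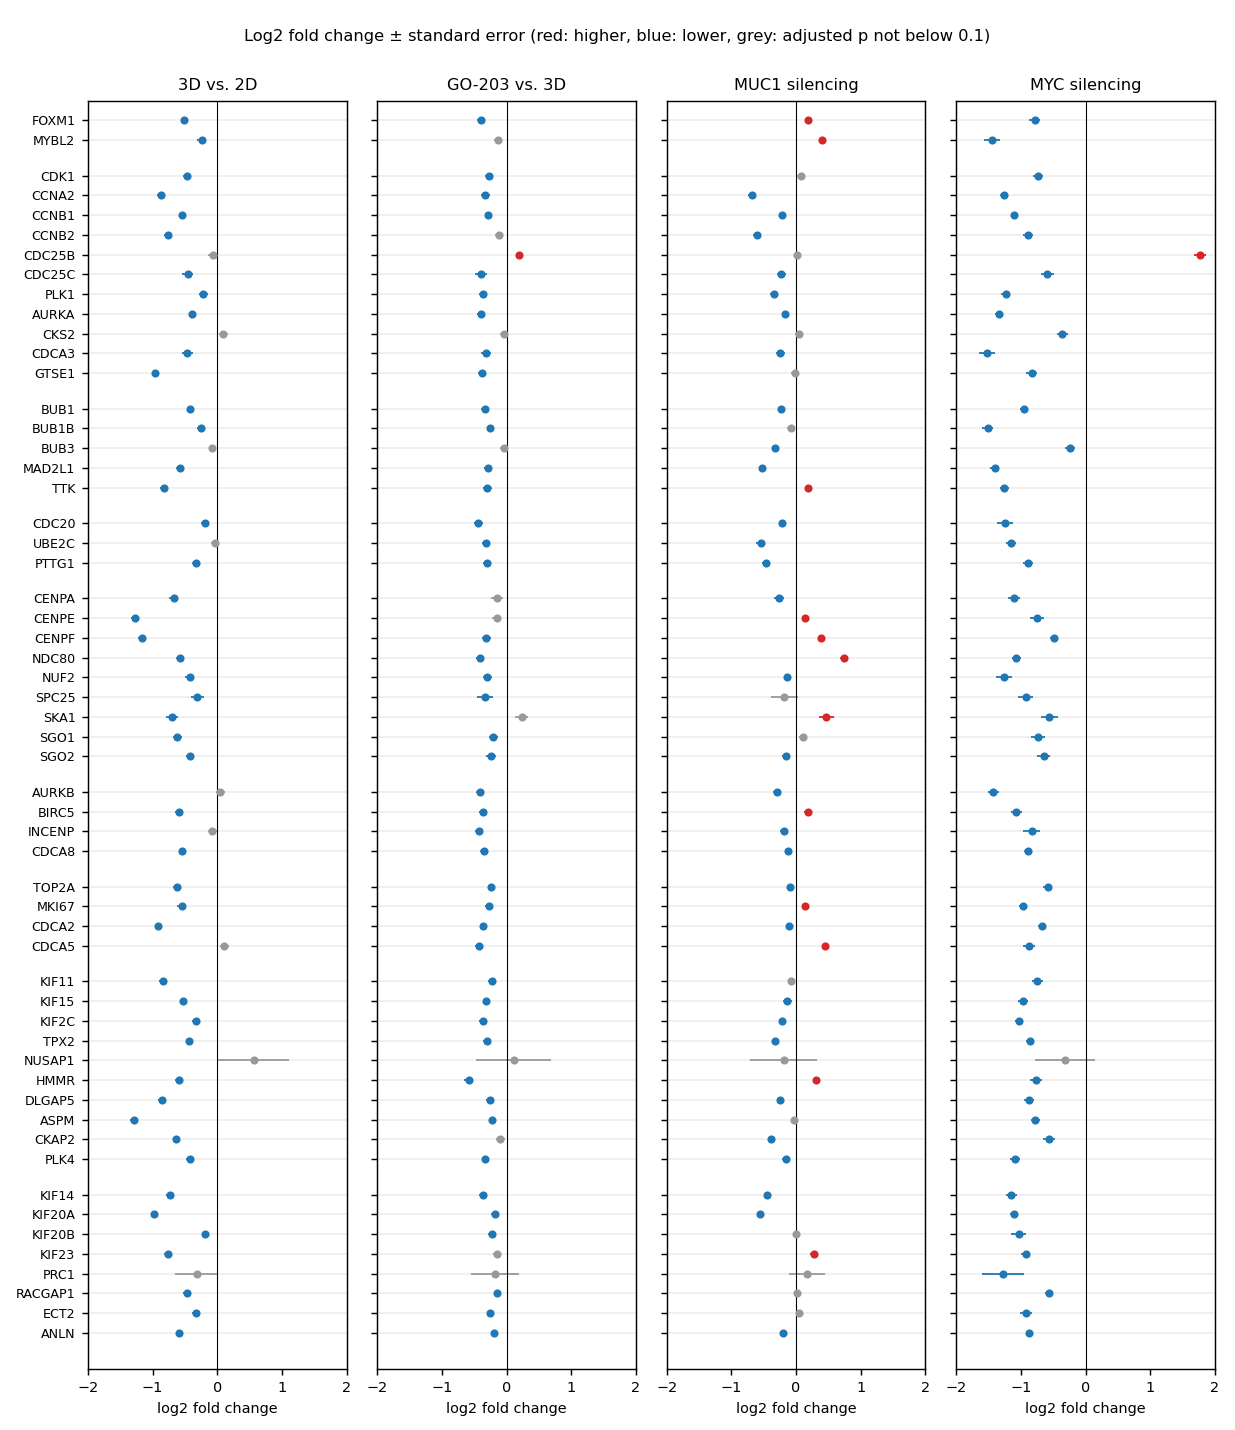
Log2 fold change with its standard error (horizontal axis) of each of the 56 genes (vertical axis, grouped by role from transcription factors at the top to cytokinesis at the bottom) in 3D vs. 2D cells, GO-203 vs. 3D cells, MUC1 silencing and MYC silencing, with red for higher, blue for lower and grey for genes that did not pass. Blue points number 47, 44, 30 and 54 in the 4 panels and red points 0, 1, 12 and 1, and with scaling by library size alone the third panel would have 12 blue and 22 red points.

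GO-203 treatment of 3D cells was followed by small decreases across most of these genes: 44 of 56 fell, CDC25B alone rose and 11 did not pass. Over all 18488 genes tested, 12.9% were lower and 11.1% higher. The median log2 fold change was -0.29, against 0.02 over all genes tested. The same 3D libraries serve as treated samples in the comparison with 2D cells and as controls here. The largest fall was in HMMR, a spindle and hyaluronan-binding protein, which was at 89.5, 93.7 and 104 CPM in 3D cells and at 63.8, 59.5 and 64.9 CPM with GO-203. CDC20 was at 198, 172 and 177 CPM against 139, 135 and 124 CPM, and INCENP at 87.4, 76.9 and 79.4 CPM against 58.7, 62.2 and 57.7 CPM. No library of the treated group reached the control range for these genes. The log2 fold changes were -0.59 (SE 0.06, edgeR adjusted p = 5.9e-07), -0.44 (SE 0.07, adjusted p = 4.4e-05) and -0.43 (SE 0.06, adjusted p = 3.1e-05).

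Medians of the role classes ran from -0.19 for the central spindle and cytokinesis and -0.24 for the kinetochore to -0.39 for the chromosomal passenger complex, and differences between classes were not tested. All 4 chromosomal passenger genes fell, including AURKB, by 0.41, and all 3 APC/C and anaphase genes did, as did all 4 of chromosome structure. Of the mitotic entry genes 8 of 11 fell, AURKA and CDC25C by 0.40 each and CDK1 by 0.28. FOXM1 was at 157, 154 and 151 CPM in 3D cells and at 112, 117 and 116 CPM with GO-203 and fell by 0.40 (SE 0.06, edgeR adjusted p = 1.7e-05), whereas MYBL2 had a log2 fold change of -0.13 (SE 0.07) and overlapping groups. MYBL2 passed as lower without replicate 1 of the GO-203-treated cells (-0.19). Among the kinetochore genes, 6 of 9 fell, and SKA1, which couples kinetochores to microtubules, had the highest value of the 56, at 0.23 (SE 0.10, edgeR adjusted p = 0.10), from 10.5, 10.6 and 11.6 CPM in 3D cells and 12.8, 11.5 and 13.5 CPM with GO-203. It passed as higher by library size alone, with at least 10 counts in every library, without replicate 3 of the 3D cells and without replicate 2 of the GO-203-treated cells. CDC25B was at 271, 258 and 259 CPM in 3D cells and at 293, 291 and 302 CPM with GO-203 and rose by 0.19 (SE 0.05, edgeR adjusted p = 0.014), a call that was lost with all 21 libraries in one fit (0.16, adjusted p = 0.17). NUSAP1 had overlapping groups, at 0.284, 0.462 and 0.121 CPM in 3D cells and at 0.110, 0.436 and 0.365 CPM with GO-203.

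MUC1 silencing split the mitosis and G2/M genes: 12 rose, 30 fell and 14 did not pass. Over all 19220 genes tested, 30.7% were higher and 31.6% lower, so the share of these genes that fell lay above the background and the share that rose below it. The median log2 fold change was -0.14, against 0.02 over all genes tested. This split depends on the scaling. With library size alone, the median over all genes tested shifted by 0.17 on the log2 scale, to 41.4% higher and 22.9% lower, and 22 of the 56 genes were then higher and 12 lower, both near those shares, with a median of 0.03. The 12 genes that rose were higher under both scalings. Of the 30 that fell, 12 were also lower by library size alone, 17 did not pass and TOP2A turned to higher. The 10 most counted genes took 7.69% to 8.09% of the vehicle-treated and 8.95% to 9.11% of the DOX-treated libraries, and their part in this shift was not tested.

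Of the 9 centromere and kinetochore genes, 4 were higher, 3 lower and 2 not passed, with a median of 0.11. Over all genes tested 30.7% were higher and 31.6% lower, so the 3 lower were near the background. By library size alone 5 of the 9 were higher, none was lower and the median was 0.28, where 41.4% of all genes were higher and 22.9% lower. The highest values of the 56 were those of NDC80 and SKA1. NDC80, the microtubule-binding subunit of the outer kinetochore, was at 52.6, 68.2 and 63.0 CPM with vehicle and at 109, 103 and 97.5 CPM with DOX. SKA1 was at 6.95, 8.26 and 6.35 CPM against 10.9, 10.2 and 8.88 CPM, and CENPF at 103, 105 and 103 CPM against 135, 136 and 137 CPM. All DOX-treated libraries lay above all vehicle-treated ones. NDC80 rose by 0.74 (SE 0.07, edgeR adjusted p = 8.3e-09), SKA1 by 0.47 (SE 0.11, adjusted p = 0.0011) and CENPF by 0.38 (SE 0.04, adjusted p = 2.5e-07). CENPE also rose, by 0.14, while CENPA (the centromeric histone), NUF2 and SGO2 fell by 0.26, 0.14 and 0.16 but did not pass by library size alone. SGO1 and SPC25 did not pass, at 0.11 and -0.18, and SGO1 was called higher by library size alone (0.28). NUF2 is the direct partner of NDC80 in the same complex.

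Both transcription factors rose. MYBL2 was at 52.0, 51.1 and 49.3 CPM with vehicle and at 66.8, 69 and 66.3 CPM with DOX (log2 fold change 0.40, SE 0.05, edgeR adjusted p = 7.6e-07), and FOXM1 at 103, 103 and 94.6 CPM against 115, 113 and 114 CPM (0.18, SE 0.05). CDCA5 was at 47.2, 46.1 and 41.0 CPM with vehicle and at 64.1, 61.6 and 59.1 CPM with DOX. It rose by 0.45, HMMR by 0.30, KIF23 (a centralspindlin motor) by 0.27, BIRC5 and TTK by 0.19 each and MKI67 by 0.14. The call of MKI67 was lost with all 21 libraries in one fit (0.12, edgeR adjusted p = 0.15).

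The 3 cyclins of the list fell, CCNA2 and CCNB2 under both scalings and CCNB1 with TMM factors but not by library size alone. CCNA2 was at 140, 147 and 139 CPM with vehicle and at 94.7, 91.4 and 80.5 CPM with DOX. CCNB2 was at 55.9, 54.8 and 53.4 CPM against 38.8, 37.5 and 32.2 CPM, and the cytokinesis motor KIF20A at 190, 214 and 192 CPM against 140, 137 and 131 CPM. The groups of CCNA2, CCNB2 and KIF20A did not overlap, and all 3 genes were lower under both scalings. CCNA2 fell by 0.69 (SE 0.05, edgeR adjusted p = 1.7e-10), CCNB2 by 0.61 (SE 0.06, adjusted p = 1.5e-08) and KIF20A by 0.56 (SE 0.05, adjusted p = 2.8e-09). CCNB1 was at 428, 410 and 403 CPM with vehicle and at 372, 360 and 340 CPM with DOX and fell by 0.22 (SE 0.04), which became -0.05 by library size alone (edgeR adjusted p = 0.22). UBE2C fell by 0.55, MAD2L1 by 0.53 and PTTG1 by 0.47, also under both scalings, as did PLK1 by 0.34, BUB3 by 0.33 and AURKB by 0.30. AURKA fell by 0.17 (SE 0.05), a call lost by library size alone (edgeR adjusted p = 0.98). CDK1 had a log2 fold change of 0.07 (SE 0.05), with 98.8, 110 and 99.3 CPM against 112, 109 and 105 CPM. Those groups overlapped, and CDK1 was called higher by library size alone (0.24), with at least 10 counts in every library and without replicate 2 of the vehicle-treated libraries (0.12 in both). TOP2A was at 382, 403 and 378 CPM with vehicle and at 382, 375 and 346 CPM with DOX. Its log2 fold change of -0.09 (SE 0.04, edgeR adjusted p = 0.083) did not pass without replicate 2 of the vehicle-treated or any of the DOX-treated libraries, without the low-count filter, with at least 10 counts in every library or with all 21 libraries in one fit.

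**Figure D4:**
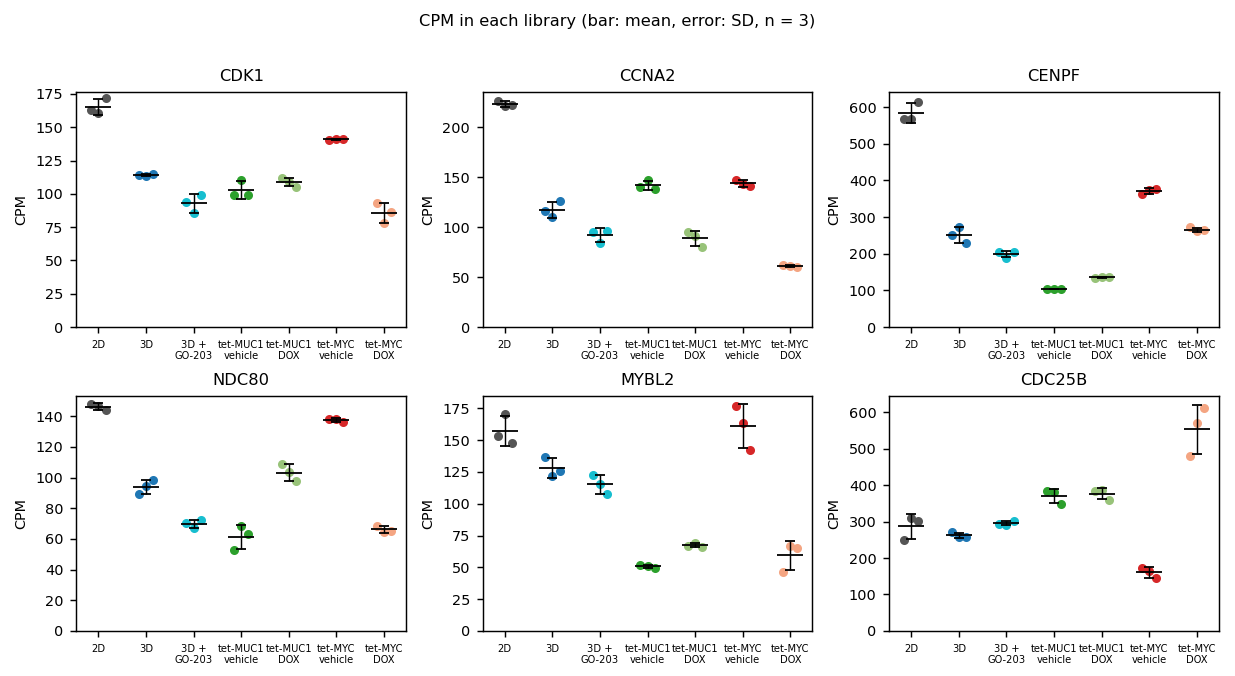
CPM (vertical axis, from 0) of CDK1, CCNA2, CENPF, NDC80, MYBL2 and CDC25B in each library (points) of the 7 groups (horizontal axis), with the mean and SD of 3 libraries (bars). In the tet-MUC1shRNA line NDC80 is higher with DOX (97.5 to 109 CPM against 52.6 to 68.2) and CCNA2 lower, and in the tet-MYCshRNA line 5 of the 6 genes are lower with DOX while CDC25B is higher (481 to 612 CPM against 144 to 172).

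MYC silencing was followed by the widest decrease: 54 of 56 genes fell and CDC25B rose, leaving NUSAP1, a spindle-associated protein, without a call. Over all 19951 genes tested, 28.1% were lower and 30.3% higher. The median log2 fold change was -0.91 over the 56 genes, against 0.01 over all genes tested, and all classes had medians between -0.75 and -1.25. Beyond a log2 fold change of 1.5 in size, BUB1B and CDCA3 were lower, where 3.39% of all genes were, and CDC25B was higher, where 7.06% of all genes were. The counts of 54 lower genes and 1 higher gene were the same with DESeq2, with RLE or library size scaling and with any library left out.

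BUB1B (BUBR1, a checkpoint inhibitor of the APC/C) was at 117, 120 and 112 CPM with vehicle and at 43.9, 37.7 and 41.7 CPM with DOX. CDCA3, which targets WEE1 for degradation, was at 32.3, 29.8 and 27.4 CPM against 8.74, 12.3 and 10.5 CPM with DOX, and MYBL2 at 177, 163 and 143 CPM against 46.4, 66.9 and 65.4 CPM. The DOX-treated libraries were in each case far below the vehicle-treated range. The log2 fold changes were -1.52 (SE 0.08, edgeR adjusted p = 1.6e-07) for BUB1B, -1.52 (SE 0.12, adjusted p = 3.1e-06) for CDCA3 and -1.45 (SE 0.12, adjusted p = 3.9e-06) for MYBL2. Of the exon bases of BUB1B, 10.2% are shared on the same strand with BUB1B-PAK6 and PAK6, so its reads may be split.

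Mitotic kinases fell together. AURKB was at 80.7, 78.9 and 68.3 CPM with vehicle and at 26.2, 28.9 and 30.8 CPM with DOX, AURKA at 270, 268 and 256 CPM against 105, 103 and 109 CPM, and PLK1 at 183, 178 and 169 CPM against 67.1, 76.1 and 84.8 CPM. They fell by 1.42, 1.34 and 1.24 on the log2 scale (SE 0.08, 0.06 and 0.07). MAD2L1 fell by 1.41, CCNA2 by 1.26, CDC20 by 1.24, UBE2C by 1.15, CCNB1 by 1.10, NDC80 by 1.07 and CDK1 by 0.73. FOXM1 was at 235, 221 and 201 CPM against 111, 131 and 145 CPM and fell by 0.78 (SE 0.09). MKI67 was at 863, 869 and 871 CPM against 406, 462 and 484 CPM and fell by 0.96 (SE 0.06). The smallest falls were in BUB3, by 0.24 (SE 0.07, edgeR adjusted p = 0.016), CKS2, by 0.36, and CENPF, by 0.49. BUB3 was at 146, 144 and 133 CPM with vehicle and at 128, 115 and 120 CPM with DOX, without overlap, while NUSAP1 overlapped, at 0.203, 0.170 and 0.194 CPM against 0.158, 0.104 and 0.194 CPM. CDC25B, on chromosome 20 of GRCh38 from 3786772 to 3806121, was at 172, 165 and 144 CPM with vehicle and at 481, 570 and 612 CPM with DOX. Those libraries hold its lowest and its highest group level of the series, and its log2 fold change was 1.77 (SE 0.09, edgeR adjusted p = 1.1e-07). CDC25C, its paralog, moved the other way and fell by 0.59 (SE 0.10).

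The question whether DOX changed these genes alike in both tet lines was tested as an interaction over 12 libraries. The log2 fold change was larger (less negative or more positive) on MUC1 than on MYC silencing for 52 of 56 genes and smaller for CDC25B, and 3 genes did not pass. Over all 21585 genes tested, 26.0% had a larger and 26.9% a smaller change. The median difference was 0.81 over the 56 genes and 0.05 over all genes tested. It was greatest for MYBL2, at 1.83 (SE 0.14, edgeR adjusted p = 5.4e-09), and NDC80, at 1.80 (SE 0.11, adjusted p = 2.6e-10), and it was -1.77 (SE 0.10, adjusted p = 1.6e-10) for CDC25B, whose log2 fold change on MUC1 silencing was 0.01 (SE 0.04), or 0.18 and called higher by library size alone. The 3 genes that did not pass were BUB3, CKAP2 and NUSAP1. By library size alone, 53 genes had a larger and 1 a smaller change, where 33.6% and 21.3% of all genes did. The tet-MYCshRNA line began from a higher level. The 56 genes took 1.14% of counts in each of its vehicle-treated libraries against 0.619% to 0.647% in vehicle-treated tet-MUC1shRNA libraries, and 0.628% to 0.680% against 0.638% to 0.649% after DOX. The part of this starting level in the interaction was not tested.

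**Figure D5:**
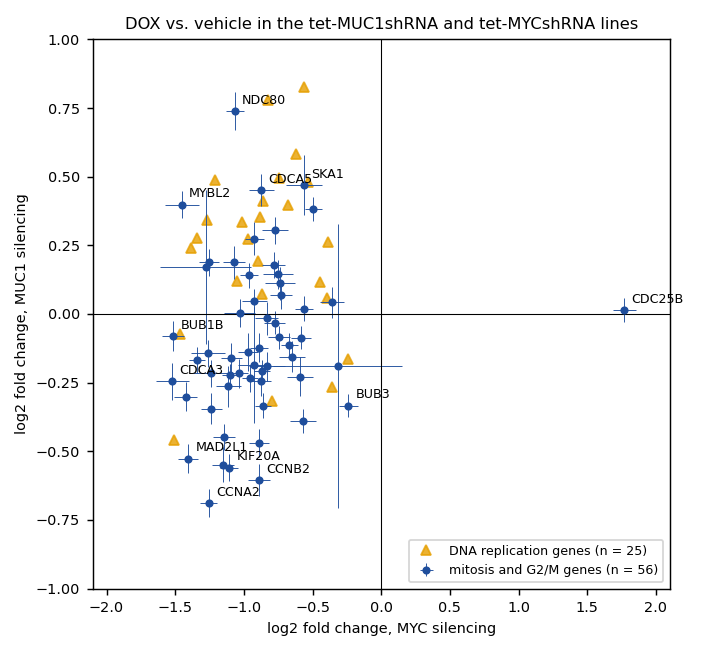
Log2 fold change on MUC1 silencing (vertical axis) against that on MYC silencing (horizontal axis) for the 56 mitosis and G2/M genes (circles with standard errors) and 25 DNA replication genes (triangles). With the exception of CDC25B at 1.77, all points lie left of 0 on the horizontal axis, while on the vertical axis the circles run from -0.69 for CCNA2 to 0.74 for NDC80, an axis that library size scaling alone would shift upward by 0.17.

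GO-203, which acts on the MUC1-C protein, and MUC1 silencing, which acts on the transcript, were compared over their own 12 libraries in the same way. The log2 fold change was larger on MUC1 silencing for 26 genes and smaller for 8, and 22 did not pass, where 20.8% and 24.1% of all 20829 genes tested were larger and smaller. By library size alone the counts were 42 and 3, where the shares over all genes were 28.6% and 17.8%. NDC80 differed most, at 1.15 (SE 0.10, edgeR adjusted p = 3.6e-10), with a fall of 0.41 under GO-203, followed by HMMR at 0.90 (SE 0.08) and CDCA5 at 0.88 (SE 0.09). In the other direction, CCNB2 was at -0.49 (SE 0.09), KIF20A at -0.38 (SE 0.08) and CCNA2 at -0.35 (SE 0.09). GO-203 was given to cells without an shRNA, so agent and line cannot be told apart.

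Genes that work beside these 56 were described by 6 further lists. Their counts are read against the shares over all genes tested, which for higher and lower were 32.0% and 31.7% in 3D vs. 2D cells, 11.1% and 12.9% under GO-203, 30.7% and 31.6% on MUC1 silencing (41.4% and 22.9% by library size alone) and 30.3% and 28.1% on MYC silencing. The 25 DNA replication genes, which act in S phase, had 13 higher and 3 lower in 3D vs. 2D cells, 20 lower under GO-203, 16 higher and 4 lower on MUC1 silencing (21 and 2 by library size alone) and all 25 lower on MYC silencing. Each of these larger counts lay above its background. POLA1 (DNA polymerase alpha) rose by 0.85 and the origin licensing factor CDT1 by 0.77 in 3D cells, where 47 of the 56 mitosis and G2/M genes fell. On MUC1 silencing, the E cyclins CCNE2 and CCNE1 rose by 0.83 and 0.58 while CCNA2 fell. The 27 other kinetochore genes had 1 higher and 16 lower in 3D cells, 9 lower under GO-203, 12 higher and 8 lower on MUC1 silencing (16 and 4 by library size alone) and 1 higher and 21 lower on MYC silencing. Lower genes exceeded the background in 3D cells, under GO-203 and on MYC silencing, while the 8 lower on MUC1 silencing were near the 31.6% of all genes. CENPU, of the inner kinetochore, was lower by 1.68 in 3D cells and higher by 0.92 on MUC1 silencing.

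The 17 condensin and cohesin genes had 6 higher and 10 lower in 3D cells, 12 lower under GO-203, 5 higher and 8 lower on MUC1 silencing (8 and 5 by library size alone) and 1 higher and 12 lower on MYC silencing. The counts of lower genes lay above the 31.7%, 12.9%, 31.6% and 28.1% of all genes in these comparisons (by library size alone the 5 lower on MUC1 silencing were near the 22.9%), and the 6 higher in 3D cells and 5 higher on MUC1 silencing were near the 32.0% and 30.7%. Condensin subunit NCAPH fell by 1.18 on MYC silencing and rose by 0.51 on MUC1 silencing, and separase (ESPL1) fell by 0.69 and 0.64. In the same order, the 17 APC/C subunits and inhibitors had 3 higher and 6 lower, 1 and 4, 5 and 9 (8 and 6 by library size alone) and 4 and 10. Of these the 6 lower in 3D cells and the 5 higher on MUC1 silencing were near the background, and the 10 lower on MYC silencing above it. Among them UBE2S, which extends ubiquitin chains, fell by 1.20 on MYC and 0.70 on MUC1 silencing. The 20 DREAM, RB and E2F factors had 4 higher and 9 lower, 2 and 5, 11 and 7 (11 and 5 by library size alone) and 4 and 11, with the repressors E2F5, E2F7 and E2F8 falling by 1.97, 1.31 and 1.11 on MYC silencing. Of the 20 factors, the 2 higher under GO-203 and 7 lower on MUC1 silencing were near the 11.1% and 31.6% of all genes, and the 11 higher on MUC1 and 11 lower on MYC silencing above the 30.7% (41.4% by library size alone) and 28.1%.

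Of the 18 G2 checkpoint and CDK inhibitor genes, 16 or 17 were tested, with 9 higher and 3 lower in 3D cells, 2 and 5 under GO-203, 5 and 9 on MUC1 silencing (7 and 5 by library size alone) and 5 and 10 on MYC silencing. The 9 higher in 3D cells and the 10 lower on MYC silencing were above the 32.0% and 28.1% of all genes, and the 2 higher under GO-203 and 5 higher on MUC1 silencing near the 11.1% and 30.7%. CDKN1A (p21) was at 4.15, 5.84 and 7.13 CPM in 2D and at 55.7, 52.7 and 54.3 CPM in 3D cells, and GADD45A at 7.14, 6.32 and 6.05 CPM against 45.2, 44.2 and 45.7 CPM. They rose by 3.29 and 2.85 on the log2 scale in the comparison in which 47 mitosis and G2/M genes fell. On MYC silencing CDKN1A rose by 0.80 and CDKN1B (p27) by 0.83, and CDC25A, the third CDC25 phosphatase, fell by 1.44. The largest change of this list on MUC1 silencing was in SFN (14-3-3 sigma, which holds CDK1 in the cytoplasm), which rose by 4.82 (SE 0.34) from 0.363, 0.0933 and 0.0387 CPM with vehicle to 4.53, 4.15 and 4.53 CPM with DOX, a level that stayed low. Cyclins G2 and G1 fell by 1.95 and 1.81 in the same comparison, with CCNG1 at 497, 520 and 491 CPM with vehicle and at 151, 148 and 135 CPM with DOX.

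Read against the promoters, the 37 genes with a CHR match and the 10 without had median log2 fold changes of -0.52 and -0.48 in 3D vs. 2D cells, -0.28 and -0.26 under GO-203, -0.09 and -0.26 on MUC1 silencing and -0.89 and -1.07 on MYC silencing. For the 7 genes with an E-box and the 40 without, the medians on MYC silencing were -0.87 and -0.93. These are descriptions of small sets, and no test was made of them.

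Values of NUSAP1 and PRC1 (which bundles microtubules of the central spindle) are uncertain. NUSAP1, on chromosome 15 from 41320794 to 41381050, did not exceed 0.462 CPM in any library, and 86.8% of its exon bases lie on the same strand in another annotated gene. PRC1, on chromosome 15 from 90966040 to 90995629, did not exceed 1.07 CPM, with 57.6% shared in that way. PRC1 nevertheless passed on MYC silencing, at 1.03, 0.950 and 0.549 CPM with vehicle against 0.316, 0.382 and 0.355 CPM with DOX (log2 fold change -1.28, SE 0.33, edgeR adjusted p = 0.0081). The annotation also names 5 pseudogenes after UBE2C and 2 each after AURKA, DLGAP5 and SGO1, with which reads of these genes could be shared. How reads in shared exons or copies were counted is not given in the sources used here.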

How the data were processed

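Total RNA of 21 BT-549 samples was made into stranded mRNA libraries and sequenced in pairs. The authors aligned reads to GRCh38 with STAR (2.7.3a in the submitters' processing notes, which also name CASAVA 1.8.2 and DESeq2) and deposited raw counts per gene from featureCounts, without normalization. The annotation release, strand setting and handling of multi-mapped reads are not given in the sources used here. Empty cells, in which a block of libraries lists no value, were read as 0, and none belonged to the 56 genes. Gene positions are those of GENCODE 44.

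Each comparison was fitted on its own 6 libraries, and each interaction on 12, in R 4.3.3 with edgeR 4.0.16 (filterByExpr, TMM factors, quasi-likelihood test). Benjamini-Hochberg adjustment ran over all genes tested, and genes passed at an adjusted p below 0.1. CPM were scaled over all 21 libraries. A log2 fold change carries its standard error (SE). The 56 genes and the lists were chosen with earlier results of these data known. Values per library were given for main kinases, cyclins and factors where a result turns on them, and for the 3 largest and 3 smallest log2 fold changes of each comparison. Examples from the other lists, CDKN1A among them, were named after their values were seen.

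Between replicates, the chi-square per degree of freedom of the counts was 4.37 to 52.8, so no replicate pair looked like 1 library deposited again. The highest values, 52.8 and 36.3, were those of replicate 1 of the DOX-treated tet-MYCshRNA mammospheres against the other two. Depth was 38026597 counts or more per library. The alternatives were DESeq2 1.42.0, RLE factors, library size alone, no filter, 10 or more counts in each library, a joint fit of all 21 libraries, a block for the replicate number, 0.05 as the threshold, the vehicle group of tet-MUC1shRNA instead of 3D cells, the promoter before the start alone, and leaving out each library. The main edgeR fit of each comparison and interaction was run on simulated counts, and the alternatives were not. Rises and falls were equal in number there, so the simulation does not bear on the scaling shift seen on MUC1 silencing.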

Additional observations from a re-analysis of the deposited data

Results flagged for a closer look

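The response to DOX differed between the tet-MUC1shRNA and tet-MYCshRNA lines, by the interaction term, for 53 of the 56 mitosis and G2/M genes. Over all 21585 genes tested, 26.0% had a larger and 26.9% a smaller change on MUC1 than on MYC silencing. Of the 53 genes, 12 passed in both lines with opposite signs, rising on MUC1 and falling on MYC silencing. Their differences in log2 fold change (MUC1 minus MYC silencing) were 1.83 for MYBL2, 1.80 for NDC80, 1.43 for TTK, 1.31 for CDCA5, 1.25 for BIRC5, 1.19 for KIF23, 1.09 for MKI67, 1.06 for HMMR, 1.02 for SKA1, 0.95 for FOXM1, 0.88 for CENPE and 0.86 for CENPF. CDC25B was the gene with a negative difference, at -1.77. Line, shRNA and passage number cannot be told apart in these differences. The share of all genes that passed with opposite signs was not counted. By library size alone 22 of the 56 genes were higher on MUC1 silencing, so the number with opposite signs depends on the scaling. The call of MKI67 on MUC1 silencing was lost with all 21 libraries in one fit.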

How the results depend on the processing

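Scaling mattered most on MUC1 silencing. By library size alone, 22 genes were higher and 12 lower, the median log2 fold change turned to 0.025 and TOP2A to 0.079, and against GO-203 42 genes had a larger and 3 a smaller change. In 3D vs. 2D cells the median was -0.55 by library size alone and -0.53 with at least 10 counts in every library. With the tet-MUC1shRNA vehicle group instead of 3D cells, 4 genes were higher and the median was -0.92, with BUB3 at 0.28 and MAD2L1 at 0.0040. Under GO-203, 2 genes were higher by library size alone, with at least 10 counts in every library and with the replicate block, and 0 with all 21 libraries in one fit. Without the low-count filter 5 genes had a smaller change on MUC1 silencing than under GO-203. Leaving out each library gave 0 to 1 genes higher in 3D vs. 2D cells, 1 to 2 higher under GO-203 and 5 to 9 with a smaller change on MUC1 silencing than under GO-203, the 5 without replicate 3 of the DOX-treated cells. The causes were not tested. Deviations of libraries with the same replicate number correlated between -0.08 and 0.04. No strong shared deviation was thus seen, but whether same-numbered cultures were set up together cannot be told from these values. With the replicate block, 47 genes fell in 3D vs. 2D cells, 47 under GO-203, 30 on MUC1 and 54 on MYC silencing, and MYBL2 and SKA1 also passed under GO-203. Shares over all genes were counted for the scalings alone. Counts under the replicate block, the tet-MUC1shRNA vehicle group and the remaining alternatives therefore stand without a background. DESeq2, RLE factors and an adjusted p below 0.05 kept each of the other counts within 1.5 times. NUSAP1 and PRC1 did not exceed 0.462 and 1.07 CPM, and whether depth or shared exons set this was not tested.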
